A study of Mus musculus with 12 samples.

Results

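The list of gene symbols used here was chosen with earlier results of these data known, though no measured value defines it. Its 39 genes encode the machinery of DNA replication and S phase. They were followed through 46 probes, of 39429 on the array, in primary mouse embryonic fibroblasts (MEFs) that carried either an Itpr2 knock-out or the wild-type gene. The product of Itpr2 is a receptor for inositol trisphosphate that lets calcium out of intracellular stores. RNA was measured on 12 one-colour arrays, 3 in each of 4 groups: KO late, KO early, WT late and WT early. Late cultures had gone through 5 passages and early cultures through 3, and all came from mid-gestation embryos. The design text names 3 independent sources of MEFs per genotype, and the labels do not say whether late and early arrays with the same replicate number came from the same embryo. The sources used here do not say how the Itpr2 allele was made, and no group carried another stated allele or agent.

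A cell prepares to copy its genome in G1, when the origin recognition complex, Cdc6 and Cdt1 load the ring-shaped Mcm2 to Mcm7 helicase onto DNA. Cyclin E with its kinase and the E2F transcription factors carry the cell into S phase, Cdc45, GINS and Mcm10 switch the helicase on, and DNA polymerases copy both strands while PCNA clamps them to the template. Primary mouse fibroblasts divide quickly in early passages and slow down over later ones in ordinary culture, and replication genes are widely used as readouts of how many cells are in cycle.

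Many replication genes are known E2F targets, so the promoters of the members were searched for the letters of the E2F core. The 34 members with an entry in the RefSeq promoter table, GRCm38.p6, were read over 300 bases, from 250 before to 50 after each transcript start. Mcm4, Gins1, Gins2, Pole and Ccne2 had no entry. The motif was TTNNCGC, with C or G at each N, on either strand, matches being allowed to overlap. It lay in 25 of the 39 windows of the members, or 64.1%, against 9.57% of all 32851 windows in the table. The letters CCAAT, also on either strand and able to overlap the E2F letters, lay in 22 of the 39 windows, or 56.4%, against 37.4% of all windows. By gene, 22 of 34 members held the E2F letters and 12 did not. Upstream sequences of 4 members that changed between KO late and KO early arrays follow, and that of Mcm6, which held the most matches of all members, with 5 over its whole window. These 5 were picked after the values were seen. Each is the 250 bases before the start, 5′ to 3′ on the gene's strand, with the E2F letters in capitals where they occur. They are chr7:102441445-102441694 (plus strand), chr12:24708004-24708253 (plus strand), chr7:38107491-38107740 (minus strand), chr5:151651209-151651458 (minus strand) and chr1:128359706-128359955 (minus strand).
Rrm1: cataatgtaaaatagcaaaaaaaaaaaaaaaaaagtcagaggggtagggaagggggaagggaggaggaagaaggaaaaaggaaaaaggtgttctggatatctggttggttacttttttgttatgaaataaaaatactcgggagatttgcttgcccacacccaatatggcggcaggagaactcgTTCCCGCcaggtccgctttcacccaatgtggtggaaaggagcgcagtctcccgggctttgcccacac
Rrm2: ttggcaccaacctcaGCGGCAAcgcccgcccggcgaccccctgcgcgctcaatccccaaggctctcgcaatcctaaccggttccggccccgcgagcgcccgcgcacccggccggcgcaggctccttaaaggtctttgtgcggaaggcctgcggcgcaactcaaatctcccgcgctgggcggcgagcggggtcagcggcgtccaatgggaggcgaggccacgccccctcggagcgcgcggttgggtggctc
Ccne1: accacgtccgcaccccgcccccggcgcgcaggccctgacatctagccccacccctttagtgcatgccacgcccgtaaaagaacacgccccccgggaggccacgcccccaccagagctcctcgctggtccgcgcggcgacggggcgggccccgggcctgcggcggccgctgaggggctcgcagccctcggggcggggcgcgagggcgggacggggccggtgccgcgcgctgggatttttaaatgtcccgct
Rfc3: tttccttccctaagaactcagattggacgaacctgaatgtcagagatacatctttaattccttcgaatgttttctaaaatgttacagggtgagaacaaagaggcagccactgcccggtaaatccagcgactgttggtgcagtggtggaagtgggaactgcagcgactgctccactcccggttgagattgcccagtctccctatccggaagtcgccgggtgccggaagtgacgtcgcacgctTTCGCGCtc
Mcm6: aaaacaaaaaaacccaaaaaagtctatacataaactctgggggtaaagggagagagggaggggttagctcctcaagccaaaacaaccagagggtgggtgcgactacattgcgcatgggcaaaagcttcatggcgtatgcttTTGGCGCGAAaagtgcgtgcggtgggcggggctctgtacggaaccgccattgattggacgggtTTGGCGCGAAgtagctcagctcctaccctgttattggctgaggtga
Rrm1 and Rfc3 held 1 match each upstream of the start, 67 and 9 bases before it. Rrm2 held 1 match on the opposite strand, 235 bases before the start. Mcm6 held 4 upstream, in 2 runs where matches on opposite strands overlap. Ccne1 held 0 matches in its window, which says only that these letters are not there. Lig1, the remaining gene that changed, has 3 starts in the table, whose windows held 0, 2 and 1 matches.

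The array values are log2 intensities relative to the 75th percentile of each array, so 1 unit is a doubling and only differences of the same probe between arrays are compared. Of the 39 members, 38 were well above background on all 12 arrays, so none of these passed the filter through 1 group alone. The exception was Ccne2, cyclin E2, whose single probe was above background on 0 arrays and was not tested. Between 59.2% and 67.5% of probes were above background on each array, 0 were saturated, and the 3 arrays per group limit the precision of every difference. All 13 fibroblast markers, Col1a1 and Pdgfra among them, were above background in all 4 groups. The single Itpr2 probe read 1.90 ± 0.057 (SD, n = 3) in KO late arrays and 1.48 ± 0.23 in KO early arrays, against 1.73 ± 0.13 in WT late arrays and 1.08 ± 0.27 in WT early arrays. It was not lower in KO, its position relative to the deleted part is not given, and it checks nothing, so KO stands here for the arrays labelled KO. Xist, which coats the silenced X chromosome of female cells, was above background on KO late replicates 1 and 2, on 0 KO early arrays, and on replicate 1 of both WT groups. Averaged over its probes it read -1.63 and -0.71 on KO late replicates 1 and 2, against -7.45 and -7.83 on KO early replicates 1 and 2. KO late replicates 1 and 2 thus matched no KO early array in Xist. In KO, passage therefore cannot be told apart from the sex of the cells or the embryo they came from. KO and WT also differed at each passage in how many arrays carried Xist. The comparisons of genotype and of passage responses are therefore unbalanced for sex too, and its part in them was not tested.

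Of the 38 measured members, 33 were lower on average on the KO late than on the KO early arrays and 5 were higher. Their median varied widely over the WT late arrays. After subtraction of each gene's mean over 12 arrays, the median of the members was -0.085, -0.14 and -0.028 on the KO late arrays and 0.066, 0.079 and 0.080 on the KO early arrays. It was 0.052, 0.15 and -0.13 on the WT late arrays and 0.015, 0.011 and -0.032 on the WT early arrays. The KO late and KO early arrays did not overlap in this median, whereas WT late replicate 3 lay below every KO late array except replicate 2. On KO late arrays 30, 34 and 25 of the 38 members were below their own mean, against 10, 6 and 6 on KO early arrays. WT late replicate 3 had 33 of them below, and was the lowest of its group for 33 members, while the same array was lowest in its group for 43.9% of all genes tested. The arrays come from whole cultures, so fewer cells in S phase and less RNA per cell cannot be told apart.

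**Figure D1:**
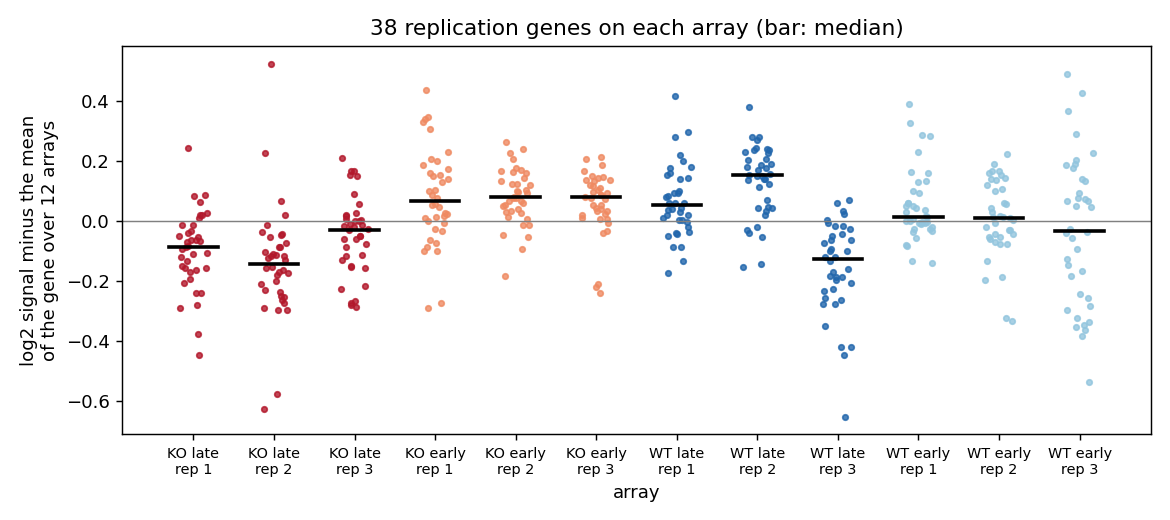
Each point is 1 of 38 replication genes on 1 array, as log2 signal minus the mean of that gene over the 12 arrays, and the bar is the median; groups run from KO late to WT early. The 3 KO late arrays and replicate 3 of both WT groups have medians below 0, and the 3 KO early arrays have medians between 0.066 and 0.080.

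The members also differed in how closely replicates of a group lay together. The median SD of a member was 0.070 in KO late and 0.068 in KO early arrays, against 0.16 in WT late and 0.13 in WT early arrays. Over all genes tested the same medians were 0.084, 0.14, 0.16 and 0.21, in that order. Uhrf1, which reads hemimethylated DNA behind the fork, had the highest SD of any member in WT late arrays, 0.51, with values of 2.68, 2.78 and 1.85. In WT early arrays, replicate 3 was the lowest of its group for 19 members and the highest for 13. Mcm2, a subunit of the helicase ring, read 0.50, 0.49 and 0.99 there, while Fen1, the nuclease that trims Okazaki fragment flaps, read 2.68, 2.44 and 2.02. The members therefore did not all shift together on that array.

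Late against early passage in KO fibroblasts was the comparison in which members changed. Rrm1, Rrm2, Ccne1 and Lig1 fell and Rfc3 rose, making 5 of 38 members called at an adjusted p under 0.05. That is no larger a share than the background, since 18.9% of all 19507 genes were called, 8.68% lower and 10.2% higher. Of the 38 members, 33 had a negative difference and the median was -0.16, while the median over all genes was -0.039 and 54.8% of them were negative. At an unadjusted p under 0.05 there were 10 members, against 33.4% of all genes.

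Both subunits of ribonucleotide reductase, the enzyme that makes deoxyribonucleotides, fell. Rrm2, the small subunit, read 2.91, 2.73 and 3.09 on the KO late arrays, against 3.79, 3.62 and 3.41 on the KO early arrays, and 3.51, 3.34 and 3.17 in WT late against 3.75, 3.55 and 3.42 in WT early. All 3 KO late arrays lay below all 9 others. The difference between KO late and KO early was -0.70 ± 0.14 (SE, n = 3 per group, adjusted p = 0.0090), or 1.62-fold lower. Rrm1, the large subunit, read 1.78, 1.79 and 1.84 in KO late, against 2.23, 2.24 and 2.19 in KO early arrays. Its values were 2.02, 2.11 and 1.88 in WT late, against 2.23, 2.20 and 2.29 in WT early arrays, so late arrays lay below early ones in both genotypes without overlap. The difference in KO was -0.42 ± 0.078 (SE, adjusted p = 0.0064), or 1.33-fold lower.

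Ccne1, cyclin E1, which activates Cdk2 at the entry into S phase, read 2.15, 1.95 and 2.25 in KO late and 2.87, 2.63 and 2.57 in KO early arrays. In WT it read 2.71, 2.38 and 2.48 in late and 2.85, 2.67 and 2.82 in early arrays. The KO late arrays were again the lowest of all, with a difference from KO early of -0.57 ± 0.12 (SE, adjusted p = 0.011), or 1.48-fold lower. A dimmer second probe of Ccne1 differed by only -0.14 between the same groups, so the size of this change rests on 1 probe. In KO against WT that second probe differed by -0.41 at early and -0.43 at late passage. The main probe differed by -0.091 and -0.40, so the probes disagree on whether KO was already lower at early passage. Lig1, the ligase that seals Okazaki fragments, read 1.90, 1.91 and 1.99 in KO late, against 2.29, 2.28 and 2.26 in KO early arrays. It read 2.10, 2.30 and 2.05 in WT late and 2.14, 2.29 and 2.19 in WT early arrays, which overlap. The KO difference was -0.35 ± 0.085 (SE, adjusted p = 0.019), or 1.27-fold lower.

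Rfc3, a subunit of the complex that loads PCNA onto DNA, was the only member called higher. It read -0.96, -0.97 and -1.03 in KO late, against -1.47, -1.29 and -1.23 in KO early arrays, and -1.10, -0.96 and -1.32 in WT late against -1.33, -1.27 and -1.44 in WT early. The KO late arrays were above all KO early arrays, and the WT groups overlapped. The difference in KO was 0.35 ± 0.11 (SE, adjusted p = 0.047), or 1.27-fold higher, and of 28 alternative treatments of the data it missed the threshold with its sign kept in 14, and turned its sign, also missing it, in 1. The other subunits of the loader on the list were not called, with differences of -0.22 for Rfc4 and -0.046 for Rfc5.

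**Figure D2:**
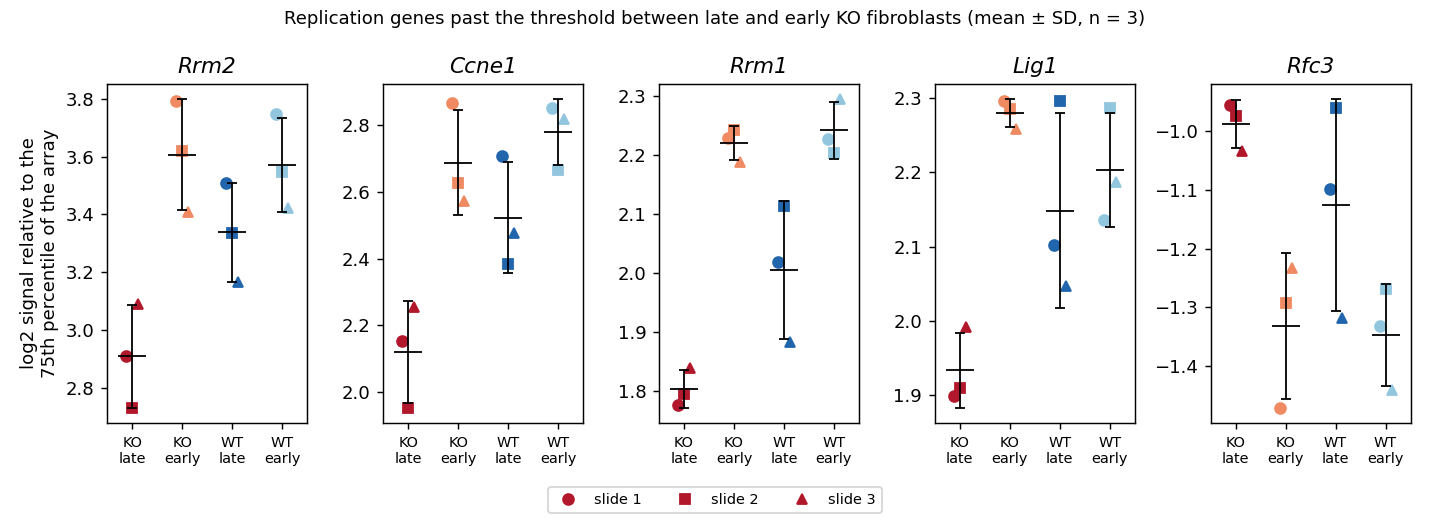
Log2 signal relative to the 75th percentile of the array for the 5 members called between KO late and KO early arrays, with 1 point per array, shaped by slide, and the group mean with SD (n = 3). KO late arrays are the lowest of all 12 for Rrm2, Ccne1, Rrm1 and Lig1, and lie above KO early for Rfc3; the vertical scale differs between genes.

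Leaving out either of the KO late arrays that carried Xist left 3 of the 5 members, Rrm1, Rrm2 and Ccne1. Leaving out both kept 1 KO late array, which had to be taken to vary like the other groups, and 0 members were called, with 0.81% of all genes called. The differences were then -0.38 for Rrm1, -0.52 for Rrm2, -0.43 for Ccne1, -0.29 for Lig1 and 0.30 for Rfc3. Their signs could not have turned, since KO late and KO early arrays did not overlap for any of these 5 members. A fit with the Xist level as a covariate also called these 3 members. Leaving out KO early replicate 1 or replicate 2 left the same 3. Of the markers of other cells, 3 of 9 for cartilage were called higher in KO late, with a summed intensity relative to the 75th percentile of 40.2 to 54.0, against 35.3 to 49.6 in KO early arrays. Of 12 macrophage markers 0 were called by limma, 1 had an unadjusted p under 0.05, and their sum was 43.0 to 77.7 in KO late, against 58.3 to 76.1 in KO early arrays. Of 6 measured neural markers 2, Nes and Stmn2, were called lower and 1 was called higher. The sum of the neural list was 10.4 to 13.0 in KO late, against 10.4 to 11.7 in KO early arrays. The muscle marker Des, not well above background on any KO late array, and the epithelial marker Krt18 were called lower, each the 1 call in its list. Of 13 fibroblast markers 4 were called lower and 1 higher, with a sum of 578.2 to 639.9 in KO late, against 713.2 to 772.5 in KO early arrays. The part of these markers in the result was not tested.

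The members that were not called in KO late against KO early arrays spread by role as follows. Among the 10 genes of origin licensing, 9 had a negative difference, with a median of -0.16 and 0 calls. Mcm2 to Mcm7, the 6 subunits of the helicase ring, ranged from -0.24 for Mcm5 to -0.064 for Mcm7. Orc6, of the origin recognition complex, and Cdt1, the loading factor, both differed by -0.26, and Orc1 by 0.063. Of the helicase activators, Gins2 differed by -0.33 (adjusted p = 0.071) and Cdc45 by 0.20, and Cdc45 had the highest SD of any member within KO late arrays, 0.41. The polymerase and primase genes ranged from -0.24 for Pole2, a subunit of DNA polymerase epsilon, to 0.051 for Pola1, the catalytic subunit of polymerase alpha.

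Pcna, the sliding clamp, read 3.41, 3.41 and 3.42 on the KO late arrays, against 3.60, 3.58 and 3.55 on the KO early arrays. These values did not overlap, yet the difference of -0.16 was not called. The other enzymes of nucleotide supply lay on the same side as ribonucleotide reductase, with -0.29 for Tyms, thymidylate synthase (adjusted p = 0.069), and -0.28 for Tk1, thymidine kinase 1 (adjusted p = 0.087). E2f1, an activating E2F, read 0.66, 0.65 and 0.67 in KO late, against 0.92, 0.81 and 0.86 in KO early arrays, a difference of -0.20 (adjusted p = 0.11). Uhrf1 differed by -0.30, and Chaf1a and Chaf1b, subunits of the histone chaperone that follows the fork, by -0.19 and -0.13. In all, 22 of 38 members did not overlap between KO late and KO early arrays, 21 lower and 1 higher, against 51.6% of all genes, 28.3% lower and 23.3% higher. Members with and without the E2F letters in their promoter had medians of -0.15 (22 genes) and -0.19 (12 genes).

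**Figure D3:**
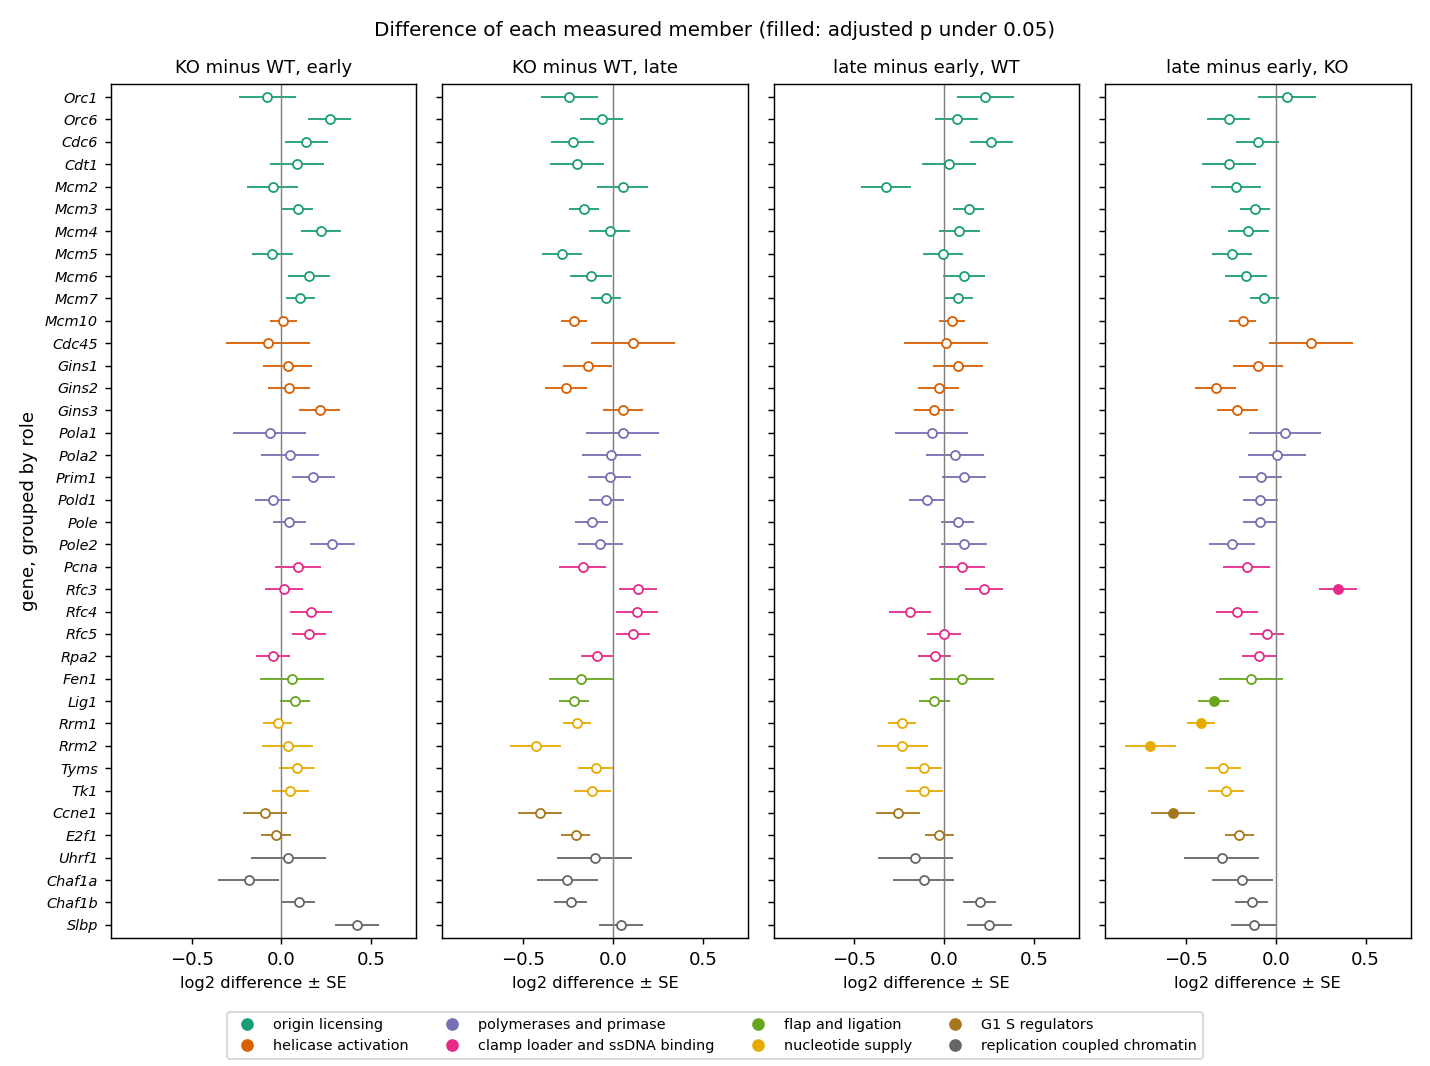
Log2 difference with its SE for each of the 38 measured members, in rows grouped and coloured by role, in 4 comparisons; filled points have an adjusted p under 0.05. Filled points occur only in the panel of late minus early passage in KO arrays, where 33 of 38 members lie left of 0.

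In WT fibroblasts the same passage comparison gave 0 of 38 members called by limma, against 10.4% of all genes, and 2 members had an unadjusted p under 0.05, against 28.5% of all genes. The median difference of the members was 0.020, with 18 negative and 20 positive, while the median over all genes was -0.011 and 51.5% of them were negative. Rrm1 had the smallest p, with a difference of -0.24 ± 0.078 (SE, adjusted p = 0.082). Cdc6, a loading factor of the helicase, and Rrm1 were the 2 of 38 members whose WT late and WT early arrays did not overlap, 1 higher and 1 lower, against 27.9% of all genes, 13.6% higher and 14.3% lower. Cdc6 read -2.46, -2.40 and -2.55 in WT late, against -2.56, -2.96 and -2.68 in WT early arrays. Without WT late replicate 3 the median of the members was 0.11.

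KO against WT at late passage also gave 0 of 38 members called by limma, against 7.76% of all genes, and 9 members had an unadjusted p under 0.05, against 24.9% of all genes. The median was -0.12 with 30 of 38 negative, beside a median of 0.0054 over all genes. The values of 10 of 38 members did not overlap, all lower in KO, against 39.5% of all genes, 19.3% lower. These were Cdc6, Mcm3, Mcm5, Mcm10, Pcna, Lig1, Rrm1, Rrm2, Ccne1 and E2f1. Ccne1 had the smallest p, with a difference of -0.40 ± 0.12 (SE, adjusted p = 0.071), followed by Rrm2 with -0.43 ± 0.14 (SE, adjusted p = 0.091).

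Mcm5, a subunit of the helicase ring, read 0.94, 0.90 and 1.00 in KO late, against 1.18, 1.30 and 1.21 in WT late arrays. It read 1.18, 1.16 and 1.23 in KO early and 1.12, 1.07 and 1.52 in WT early arrays. The late groups did not overlap, and the difference was -0.28 ± 0.11 (SE, adjusted p = 0.15). Mcm10, which helps to open the DNA at origins, read -0.38, -0.30 and -0.30 in KO late, against -0.11, -0.050 and -0.18 in WT late arrays, and -0.17, -0.15 and -0.11 in KO early, against -0.14, -0.24 and -0.090 in WT early arrays. Its late difference was -0.22 ± 0.074 (SE, adjusted p = 0.10), and KO late was the lowest group without overlap.

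The late comparison differed between slides. Each of the 3 slides held 1 array of every group, and on slides 1 and 2 the median of the members in KO late minus WT late was -0.15 and -0.29, with 31 and 36 members negative. On slide 3, which held WT late replicate 3, it was 0.11 with 13 negative, while the median of all genes there was 0.058. Without WT late replicate 3 the fitted median was -0.19, without WT late replicate 1 it was -0.074, and without slide 3 it was -0.23. With the slide as a block 1 member, Ccne1, was called. Markers of other cells also moved with this comparison. Of 12 macrophage markers 2, Cd68 and Lyz2, were called lower in KO late, and the summed intensity of the 12, relative to the 75th percentile, was 43.0 to 77.7 in KO late, against 82.6 to 137.6 in WT late arrays, with 0 markers below background in either group. Their median difference was -1.07, and 10 of the 12 had an unadjusted p under 0.05. Of 9 measured cartilage markers 6 were called higher in KO late, with a summed level of 40.2 to 54.0, against 32.1 to 37.4 in WT late arrays. Matn1 was below background on all KO late arrays and Epyc on all WT late arrays. Of 6 measured neural markers 3 were called, Nes at -2.31, Stmn2 at -2.54 and Map2 at 1.19, with a summed level of 10.4 to 13.0 in KO late, against 16.9 to 18.4 in WT late arrays. Of 4 measured skeletal muscle markers 1 was called lower, Des, which was not well above background on any KO late array, and the sum of the list was 8.59 to 10.2 in KO late, against 11.2 to 17.0 in WT late arrays. Of 13 fibroblast markers 3 were called higher and 1 lower. The part of these markers in the values of the replication genes was not tested.

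KO against WT at early passage gave 0 of 38 members called by limma, against 0.0359% of all genes, and 3 members had an unadjusted p under 0.05, against 6.04% of all genes. The median difference was 0.048 and 27 of 38 members were positive, while the median over all genes was 0.016 and 53.4% of them were positive. Mcm4, Prim1, Pole2, Rfc5, Chaf1b and Slbp, 6 of 38 members, did not overlap and were higher in KO, against 9.71% of all genes, 5.59% higher. Slbp, which binds the end of histone messages, read -0.30, -0.35 and -0.39 in KO early, against -0.53, -0.71 and -1.06 in WT early arrays. In late arrays it read -0.46, -0.58 and -0.37 in KO, against -0.56, -0.48 and -0.50 in WT. The early difference was 0.42 ± 0.12 (SE, adjusted p = 0.74) and its WT early values were widely spread. Pole2 read -1.10, -1.04 and -1.08 in KO early, against -1.31, -1.15 and -1.61 in WT early arrays, a difference of 0.28 ± 0.13 (SE, adjusted p = 0.74). Its late values were -1.30, -1.43 and -1.22 in KO, against -1.33, -1.06 and -1.35 in WT, and these overlapped.

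Whether passage acted differently in KO and WT fibroblasts was tested as the passage response of KO minus that of WT. Limma called 0 of 38 members, against 0.0871% of all genes, and 3 members had an unadjusted p under 0.05, against 13.9% of all genes. The median was -0.18 with 33 of 38 negative, beside a median over all genes of -0.010. Rrm2 had the most negative value, -0.46 with a 95% interval from -0.91 to -0.018 (adjusted p = 0.34), and Lig1 had -0.29 with an interval from -0.56 to -0.025 (adjusted p = 0.33). Chaf1b had the smallest p, at -0.33 with an interval from -0.62 to -0.040 (adjusted p = 0.31). The calls in KO and their absence in WT are thus not shown to differ. Within slides the median was -0.17, -0.33 and -0.0028 on slides 1, 2 and 3, and on slide 3 as many members were negative as positive, 19 each. KO late minus KO early had member medians of -0.18, -0.21 and -0.14 on the 3 slides. These largely repeat the separation of the array medians of the KO groups given above, and replicate numbers did not pair these groups.

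**Figure D4:**
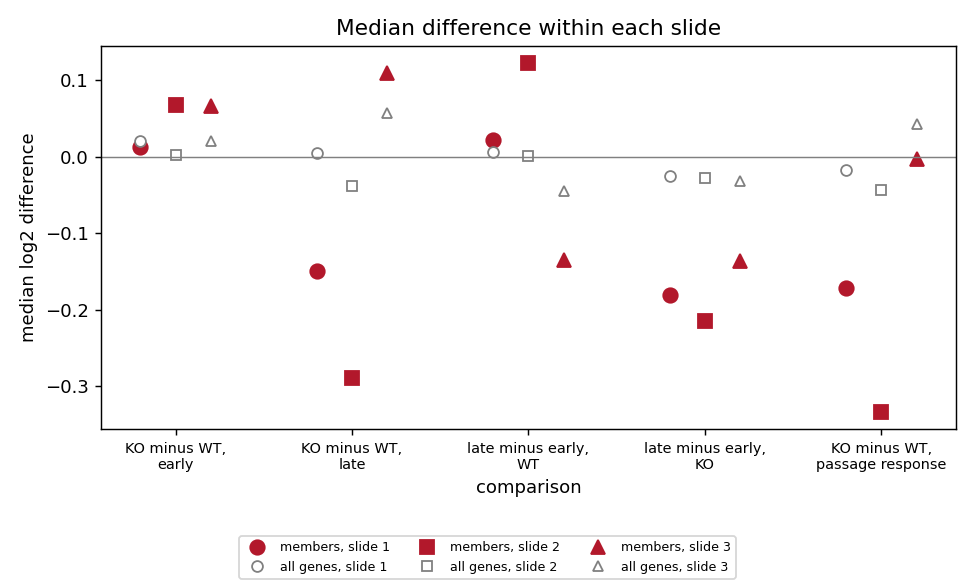
Median log2 difference of the 38 members (filled) and of all 19507 genes (open) within each of the 3 slides, each holding 1 array of every group, for 5 comparisons. The member medians are below 0 on all 3 slides for late minus early in KO, and on opposite sides of 0 for KO minus WT at late passage, at -0.15, -0.29 and 0.11.

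Other genes of the same pathway were read from lists chosen with earlier results of these data known. Of all genes tested, 18.9% were called in KO late against KO early and 7.76% in KO late against WT late. The share was 10.4% in WT late against WT early, 0.0359% in KO early against WT early, and 0.0871% in the difference of the passage responses. Of 40 further replication factors, 2 were called in KO late against KO early arrays, both lower, with a list median of -0.090. Asf1b, a histone chaperone of S phase, averaged 0.52 ± 0.020 in KO late and 1.11 ± 0.012 in KO early arrays (SD, n = 3), a difference of -0.59 (adjusted p = 0.0028). Prim2, the large primase subunit, differed by -0.33 (adjusted p = 0.033). In KO late against WT late, Asf1b fell by 0.47 on the log2 scale (adjusted p = 0.016) and Mtbp, a factor of origin firing, rose by 0.34 (adjusted p = 0.044). In KO against WT at early passage 0 were called, and Dbf4, the activator of the Cdc7 kinase, differed by 0.44 and Dscc1, a clamp loader subunit, by 0.36 (adjusted p = 0.74 each). In WT late against WT early 0 were called, with 0.55 for Dna2, a nuclease and helicase (adjusted p = 0.053), and 0.46 for Orc4 (adjusted p = 0.081).

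Of 24 measured genes of G1/S control, 8 were called in KO late against KO early arrays, 6 lower and 2 higher. Of all genes, 8.68% were called lower and 10.2% higher in that comparison. E2f6, a repressive E2F, averaged 0.86 in KO late and 2.09 in KO early arrays, a difference of -1.23 (adjusted p = 0.0013), and Ccnd3, cyclin D3, differed by -0.36 (adjusted p = 0.018). Myc, a transcription factor that promotes cell cycle entry, rose by 0.94 in KO (adjusted p = 0.00041) and by 0.94 in WT (adjusted p = 0.00094). In WT late against WT early 1 other gene was called, Ccnd3, at -0.38 (adjusted p = 0.024). In KO late against WT late 2 were called, E2f6 at -1.15 (adjusted p = 0.0045) and Ccnd2, cyclin D2, at -0.51 (adjusted p = 0.047). In KO early against WT early 0 were called, with 0.32 for Tfdp1, the partner of E2F factors, and 0.25 for Myc (adjusted p = 0.74 each).

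The inhibitors of cyclin-dependent kinases, 7 genes, had 3 calls lower and 1 higher in KO late against KO early arrays, where 18.9% of all genes were called. Cdkn2b, encoding p15, averaged 2.06 in KO late and 3.31 in KO early arrays, a difference of -1.26 (adjusted p = 0.0022). Cdkn1a, encoding p21, averaged 3.08 in KO late and 3.83 in KO early arrays, a difference of -0.76 (adjusted p = 0.0067). Cdkn2d, encoding p19, differed by -0.63 (adjusted p = 0.012), and Cdkn1b, encoding p27 and named after its value was seen, by 0.45 (adjusted p = 0.0496). In KO late against WT late, Cdkn1a fell by 0.65 on the log2 scale (adjusted p = 0.026) and Cdkn2c, encoding p18, rose by 0.65 (adjusted p = 0.034). In WT late against WT early 0 were called, with -0.44 for Cdkn1a (adjusted p = 0.080), and in KO early against WT early 0 were called, with -0.39 for Cdkn1b (adjusted p = 0.74).

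In KO late against KO early arrays 18.9% of all genes were called. The 40 genes of G2 and mitosis had 1 call there, Aurka, a mitotic kinase, at -0.47 (adjusted p = 0.022). Their median was -0.20 and 38 of 40 were negative, beside -0.16 and 33 of 38 for the replication genes, and the lists were not tested against each other. In WT late against WT early the median of the mitosis genes was -0.12 with 36 of 40 negative, while that of the replication genes was 0.020. The 1 call there was Cdc25b, a phosphatase that activates Cdk1, at -0.74 (adjusted p = 0.019). In KO against WT 0 mitosis genes were called at either passage, the smallest p being that of Pttg1, securin, at late passage, with -0.21 (adjusted p = 0.17), and of Ncapg, a condensin subunit, at early passage, with 0.37 (adjusted p = 0.74). In the difference of the passage responses 0 genes of these 4 lists were called, E2f6 having the smallest adjusted p, 0.10.

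Members with a second probe above background repeated the direction of the main probe between KO late and KO early arrays. Cdc6 had -0.10 and -0.24, Rfc4 -0.22 and -0.24, Uhrf1 -0.30 and -0.13, Chaf1b -0.13 and -0.10, and Slbp -0.12 and -0.092. In WT late against WT early arrays 2 of them differed in sign between probes, Uhrf1 at -0.16 and 0.045 and Rfc4 at -0.19 and 0.10. The Uhrf1 probes also differed in sign in KO early against WT early arrays, at 0.037 and -0.13. A second probe of Pole was above background on 0 arrays.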

How the data were processed

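RNA of 12 MEF cultures was hybridised to one-colour Agilent arrays with Cy3. Per the file headers, the deposited scanner files hold the intensity of each spot after background subtraction by Agilent Feature Extraction 11.5.1.1, while the submitters' processing notes give version 10.7.3.1. The authors' deposited value table holds log2 values of 22887 probes, which from their agreement with the scanner values are 75th-percentile scaled and centred per probe, and it served as an alternative. Column medians there ran from -0.043 to 0.023.

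Spots called outliers, 100 to 212 per array, were left out, spots of a probe averaged, and log2 intensities set against the 75th percentile of the array. Probes well above background on all arrays of a group were kept, with the brightest probe for each gene. Names came from RefSeq, GRCm38.p6, which matched 27969 of 28290 RefSeq accessions. Limma 3.58.1 (R 4.3.3) fitted 4 group means to 12 arrays, with Benjamini-Hochberg adjustment over 19507 genes and an adjusted p under 0.05 as a call. The fit was tested on simulated data. The p-values measure only the spread between these arrays. Replicate numbers, which are also the slides, paired WT late with WT early arrays, from correlations of their deviations of 0.28, 0.24 and 0.14, and paired no other groups. Normexp used median spot signals, as the files used here have no mean signal column. Values on all arrays were given for members called in any comparison and for the member of each of 8 roles with the smallest p, and in the other pathway lists up to 3 called genes, or up to 2 with the smallest p. The members and lists were chosen with earlier results of these data known. The result of 1 marker gene is not reported here.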

Additional observations from a re-analysis of the deposited data

How the results depend on the processing

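Late against early passage in KO gave 5 called members. Leaving out 1 array gave 3 to 7, slide 3 left out 9, both KO late arrays with Xist left out 0, the Xist covariate 3, no filter on dim probes 3, only the 2 groups compared 11, and array weights, whose fit did not converge, 30. Normexp with the 75th percentile gave 0, and turned the sign of Rfc3 (-0.26), Lig1 (0.25), Rrm1 (0.16), Rrm2 (0.0075) and Ccne1 (0.12). It moved the member medians to 0.22 in that comparison, where the median of all genes was -0.27, -0.35 in KO against WT early and 0.12 in the difference of passage responses. In that fit the background mean was -1235.6 on KO early replicate 3, through spots with a bright surround; fitted without flagged spots, an alternative chosen after seeing the data like those without slide 3 or both Xist arrays, it was -5.33, and 4 members were called. All genes called then numbered 2844, and under normexp with the 75th percentile 6, against 3688 as reported, 2332 without a filter, 14763 with array weights, 2324 with the Xist covariate, 158 without both Xist arrays, and 1776 to 4704 without 1 array.

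KO against WT late gave 0 called members, 1 with the mean over probes, with the replicate block or with trend and robust variances, 10 with array weights, and 0 to 1 without 1 array (1 without WT early replicate 3); its median was -0.23 without slide 3. The replicate block called 0 members in KO against WT early, in WT passage and in the difference of passage responses, and 4 in KO passage, where Rfc3 missed (adjusted p = 0.051). Without 1 array, the median ran from -0.056 to 0.11 in WT passage and from -0.28 to -0.15 in the difference of passage responses, both the 0.11 and the -0.28 without WT late replicate 3; the last was -0.29 without slide 3 and had 1 called member with array weights. Except as given, the counts and medians stayed within 1.5 times or 1 replicate SD. Beside the turned sign under normexp, Rfc3 missed the threshold in 14 alternatives, Lig1 in 7, and Rrm1, Rrm2 and Ccne1 in 1 each, the one without both Xist arrays, which leaves 1 KO late array; the cause was not tested. With 3 arrays per group, differences near the members' median of -0.16 are hard to call.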
